A study of Arabidopsis thaliana with 16 samples.

Results

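Among 22746 probe sets for Arabidopsis transcripts, 197 (0.866%) were higher with dexamethasone (DEX) in both lines of the series. An upper limit kept the rise moderate in a line that makes a DELLA protein on induction. No upper limit was set in a control line that lacks it. The probe sets were chosen on measured values. Signals under 8 were raised to 8, log2 was taken, and DEX minus mock was computed from group means. A member had a log2 change of at least 0.7 at 2 h and at 4 h in the DELLA line, a mean of both below 2.5, a change of at least 1 in the vector line, and all 3 DEX arrays above all 3 mock arrays at each time in the DELLA line. Of 201 probe sets that met these limits, 4 were left out by name, all from a short list of named genes and the UDP-glycosyltransferases. The changes with DEX are therefore given as descriptions, with no test. Of the members, 97 have 1 named gene, 6 list several and 94 are unnamed here.

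DELLA proteins are nuclear regulators that restrain growth. Gibberellin binds its GID1 receptors, the receptor then binds the DELLA protein, and the DELLA protein is marked for breakdown. The rga-delta17 form lacks the stretch that the receptor contacts, so gibberellin does not remove it. DEX is a synthetic glucocorticoid, a kind of steroid that plants do not make, and it switches on a transgene through a chimeric transcription factor that carries the steroid-binding domain of an animal receptor. An empty vector line has that factor and no DELLA transgene, so it measures what DEX and the factor do without the transgene.

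All plants were of ecotype Ler, 8 days old and kept in continuous light, and their shoots were cut for RNA. Every seedling, controls included, received a spray of GA4, a gibberellin, at 2 µM, once 16 h ahead and once at the start of the experiment, where the second spray held GA4 alone (mock) or GA4 and 10 µM DEX. The Dex-rga(delta17) line, called the rga line, was sampled after 2 h and after 4 h in mock and with DEX, with 3 biological replicates in each of these 4 groups. The Vector line, with the same inducible cassette and no rga-delta17, was sampled only after 4 h, with 2 replicates in mock and 2 with DEX. There is thus no vector group at 2 h and no group without GA4, and the labels do not say how many independent transformants stand behind each line. The labels call the replicates biological and say nothing more of their origin.

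The 2 vector DEX arrays stood apart from the other 14. Over the 17059 probe sets tested, their correlations with those arrays ran from 0.789 to 0.885, against 0.916 to 0.975 among the other arrays and 0.963 to 0.977 among replicates of a group. A control probe set for 25S ribosomal RNA gave a mean signal of 12808 ± 396 (SD, n = 2) on them, against 474 ± 73.5 (n = 2) in vector mock, while over the rga line it ran from 392 to 1220 in mock, 956 to 2046 with DEX at 2 h and 391 to 1590 with DEX at 4 h. Of 13 shoot markers, 2 were found by name in the annotation used, the photosynthesis genes LHCB4.2 and RCA. Their summed signal was 18862 to 26104 over the 16 arrays. LHCB4.2 was at 2905 and 3187 in vector mock and at 574 and 484 with DEX. It was lower with DEX in the rga line too, without overlap, at 2219, 2802 and 2291 in mock against 1832, 2183 and 1892 at 2 h, and at 2712, 2452 and 2774 against 1749, 2246 and 1933 at 4 h; its part in the members' changes was not tested. Of 13 root markers, the root-hair expansins EXPA7 and EXPA18 were found in that way, at a summed signal of 75 to 343, and neither was at the floor on all arrays of a group. In whole shoots, fewer cells of a type and less RNA per cell cannot be told apart. Whether what sets these 2 arrays apart contributes to the members' changes in the vector line was not tested, and the rga line signals below come from other arrays, although the errors and p-values of the fit share 1 estimate of the spread from all 16.

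In mock the members' median was close to that of the whole array and below that of the probe sets tested. With DEX in the vector line it was far above both. Their median signal lay between 168 and 193 on the 6 rga mock arrays, between 421 and 499 on the 6 rga DEX arrays, at 199 and 194 on the vector mock arrays, and at 1308 and 1392 on the vector DEX arrays. The median of the whole array was 178 to 191 on the rga mock arrays, 168 and 167 on the vector mock arrays and 141 and 138 on the vector DEX arrays. Over the probe sets tested, which leave out the dimmest, array medians stayed between 272 and 322, the lowest being those of the vector DEX arrays. The rule used all 3 differences and so fixed their direction. Its limits also bear on the size order of the changes, and a low mock signal raises a change. Neither the size order nor the mock levels are therefore free of the rule.

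**Figure D1:**
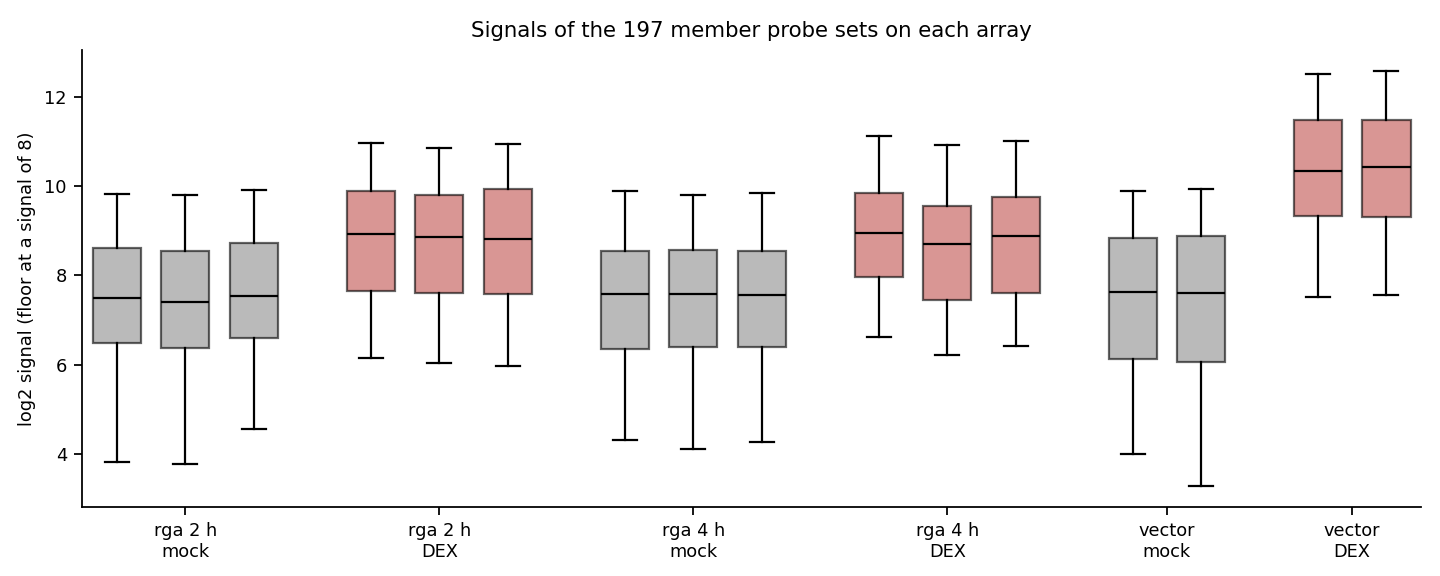
Log2 signals of the 197 members on each of the 16 arrays, with mock arrays in grey and DEX arrays in red; boxes give the quartiles and median, and whiskers the 5th to 95th percentiles. The rga DEX boxes lie above the mock boxes, and the vector DEX boxes, with median signals of 1308 and 1392, lie highest.

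In the rga line the members' median log2 change was 1.18 at 2 h (0.70 to 2.77) and 1.18 at 4 h (0.70 to 3.42), a median fold of 2.26 and 2.27. In the vector line it was 2.77 (1.01 to 7.42), a median fold of 6.84. The medians over all probe sets tested were -0.01, -0.02 and -0.15 in the same order. The change in the vector line exceeded that of the rga line at 4 h in 186 of 197 members, by a median of 1.45 and by more than 1 in 128 of them. It was at least 3 in 79 members, at least 4 in 32 and under 2 in 52. The rule set a lower limit for the vector line and an upper one for the rga line, so part of this gap is built into the choice.

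The vector arrays did not overlap in 196 of 197 members, where 30% of all probe sets tested had both DEX arrays above both mock arrays. The exception was AT1G55050, with 1 DEX array at 7.46 and the other at 35.5. Both vector DEX arrays lay above all 14 other arrays in 169 members, or 85.8%, where the share over all probe sets tested was 17.1%; the rule used these arrays, and nothing is read from the difference. Over all probe sets tested, 3.79%, 3.87% and 9.53% reached the lower limits at 2 h, at 4 h and in the vector line, and the rga arrays did not overlap, DEX above mock, in 9.43% at 2 h and 10.1% at 4 h. The vector condition itself removed few candidates: 246 probe sets met the limits in the rga line, and 201 of them (81.7%) also had a vector change of at least 1, 30 had one between 0 and 1, and 15 one below 0.

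The time courses were mixed. The change at 4 h was above that at 2 h in 105 members and below it in 92, and it lay within 0.5 of it in 142. It was more than 0.5 higher at 4 h in 29 members and more than 0.5 lower in 26. The mean of both rga changes was under 1 in 49 members, 1 to 1.5 in 84, 1.5 to 2 in 45 and 2 or more in 19.

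**Figure D2:**
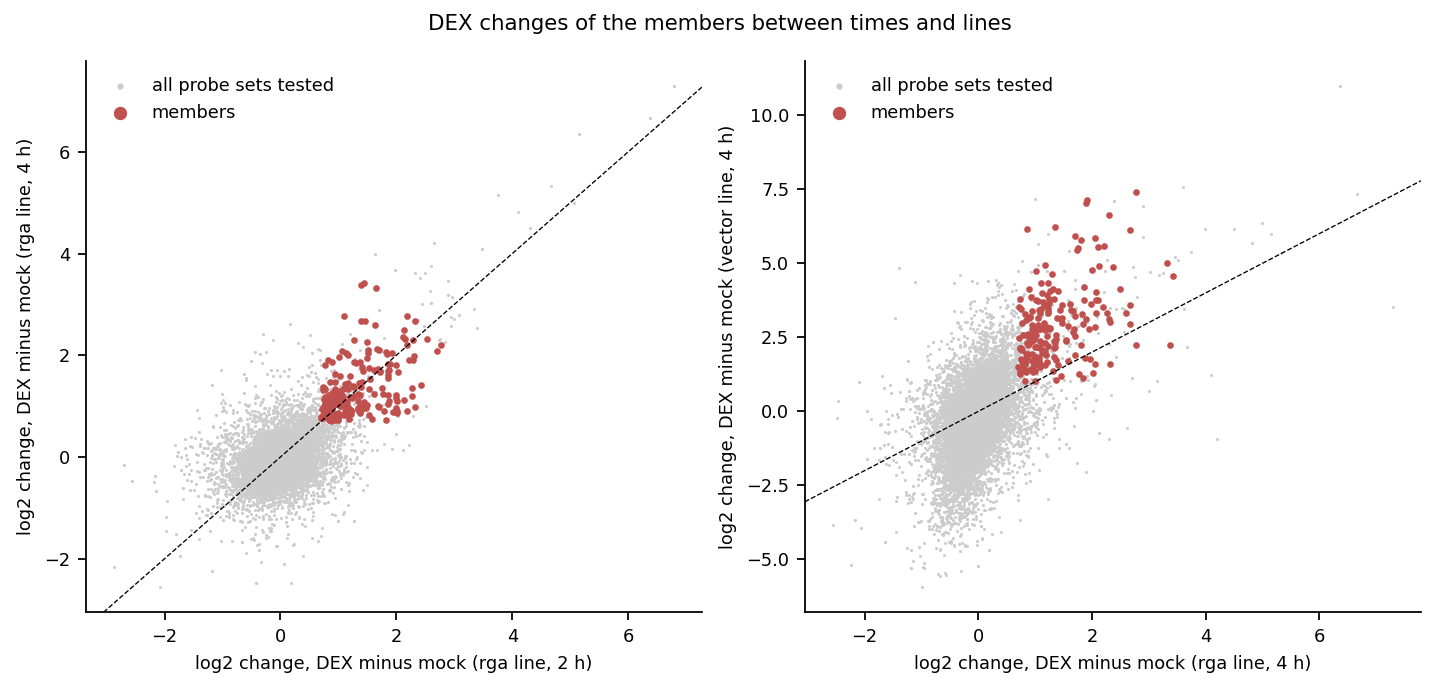
Log2 changes with DEX (DEX minus mock), for the rga line at 4 h against 2 h on the left and for the vector line against the rga line at 4 h on the right. Members are red, all probe sets tested are grey and the dashed line marks equal changes; on the left the members straddle the line (105 above, 92 below) and on the right 186 of 197 lie above it.

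The limits fell within a continuous range. At 2 h the nearest members inside the limit were AT1G26665 (0.70), AT5G05480 (0.70) and AT3G60440 (0.73), and the nearest outside were TSC10A (0.69), AT3G07320 (0.67) and AT2G41730 (0.65). At 4 h they were AT5G03870 (0.72), AT4G40050 (0.73) and AT1G03560 (0.74) inside, and AT1G80290 (0.70), AT3G13070 (0.69) and AT5G61560 (0.66) outside. In the vector line AT1G55050 (1.08), ALDH7B4 (1.12) and AT1G05710 (1.21) were inside, and EC1.2 (0.98), AT5G39080 (0.95) and AT2G39920 (0.79) outside. Under the upper limit on the mean, BGLU45 (2.49), AT5G51950 (2.48) and AT3G01830 (2.43) were inside, and AGL99 (2.51), AT1G32780 (2.52) and AT3G07600 (2.55) outside.

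Of the 97 named genes, 46 were placed in 7 role groups after their values had been seen, from family membership known for Arabidopsis, and 51 were left without a group. The groups are used to order the description and carry no test. Genes of like function may be among the 51, so nothing is read from counts within a group. Over all 197 members, the change at 4 h was above that at 2 h in 105 and below it in 92. Genes written here as a locus have no other symbol in the gene tables used.

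Lipases and esterases made up 8 of the 46. Their median change was 1.79 at 2 h, 1.27 at 4 h and 2.78 in the vector line, and in 7 of the 8 the change at 4 h was below that at 2 h. For AT1G28600, AT1G28610 and AT1G31550 that gap was smaller than the SE of either change (0.10, 0.19 and 0.15 in the limma fit). AT5G03600 and AT5G06570, of the SGNH-type esterase and alpha/beta hydrolase families, were left without a group and went the other way, with 0.93 then 1.04 and 0.74 then 1.31. SDP1, a lipase that starts the breakdown of stored seed oil, had signals of 189, 202 and 167 in mock and 663, 574 and 637 with DEX at 2 h. At 4 h it had 245, 240.0 and 216 in mock and 694, 484 and 630 with DEX, and in the vector line 296 and 294 in mock and 1375 and 1575 with DEX. No DEX array of SDP1 overlapped a mock array, and the vector DEX arrays were the highest of all. These are log2 changes of 1.75 ± 0.13, 1.35 ± 0.13 and 2.32 ± 0.16 (SE of the limma fit). Its close relative SDP1-LIKE was far dimmer, at 11.5 ± 1.47 in mock and 44.3 ± 20.8 with DEX at 2 h (mean ± SD, n = 3), and at 18.4 ± 24.7 and 172 ± 24.3 in the vector line (n = 2). SDP1-LIKE was among the 8 members too dim to enter the fit, and 1 of its 2 vector mock arrays was at the floor.

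AT3G62590, of the class 3 lipase family, had the largest excess of 2 h over 4 h among the named members, with changes of 2.18 at 2 h and 0.91 at 4 h. AT3G62280, a GDSL-type esterase gene, came next with 2.02 and 0.86. Its vector change of 6.15 was among the largest of all: its signals there were 47.1 and 42.5 in mock and 3135 and 3234 with DEX, while its highest rga line DEX array reached 184. The GDSL-type genes AT1G28600 and AT1G28610 are direct neighbours on chromosome 1, with 0 coding genes between them. Their changes were alike, at 1.27, 1.19 and 1.91 for AT1G28600 and at 0.91, 0.87 and 1.92 for AT1G28610. The class 3 lipase AT1G05790 and the GDSL-type gene AT1G31550 had changes of 1.85, 1.55 and 2.36, and of 1.72, 1.67 and 3.38. AT1G28600 was among the brightest members, at 3349 ± 149 with DEX at 2 h and 8138 ± 458 in the vector line. AT2G38570 and AT2G38580 were the only other direct neighbours among the members with a locus, at 2.57 each in the vector line.

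Genes of the cell wall and of secreted glycoproteins made up 11 members. In 10 of them DEX minus mock was larger at 4 h than at 2 h, as in 105 of all 197 members. Of those that entered the fit, only BGLU45, XEG113, AT1G67750 and AT3G47540 were called higher with DEX at 4 h than at 2 h. For AT5G04310 the larger change came with a lower mock level at 4 h, and its level with DEX differed by -0.43 ± 0.40 (adjusted p = 0.685, limma). Their medians were 1.1 at 2 h, 1.47 at 4 h and 2.99 in the vector line. BGLU45, a beta-glucosidase that acts on the glucosides of lignin precursors, had the largest mean rga change of the named members. Its signals were 57.5, 48.1 and 62.9 in mock and 175, 138 and 225 with DEX at 2 h, then 50.9, 39.9 and 39.4 in mock and 519, 307 and 508 with DEX at 4 h. In the vector line they were 32.4 and 38.6 in mock and 924 and 1392 with DEX. The groups did not overlap in either line, and the 4 h DEX arrays lay wholly above the 2 h DEX arrays. The changes were 1.66 ± 0.25, 3.33 ± 0.25 and 5.0 ± 0.30.

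Several members of this group work on extensins and arabinogalactan proteins, the hydroxyproline-rich glycoproteins of the wall. AT5G18900, of the prolyl 4-hydroxylase family, whose enzymes make the hydroxyproline that carries the sugars, had changes of 0.91 ± 0.12, 1.06 ± 0.12 and 1.81 ± 0.15. XEG113 adds arabinose to extensins, and had signals of 655 ± 64.0 in mock and 1259 ± 124 with DEX at 2 h, 628 ± 19.8 and 1758 ± 301 at 4 h, and 596 ± 63.0 and 4736 ± 142 in the vector line. AT3G01720 adds galactose to a serine of these proteins, and had changes of 1.07 ± 0.16, 1.18 ± 0.16 and 2.76 ± 0.19. All 3 had a larger change at 4 h than at 2 h in the rga line and a larger one again in the vector line. For AT5G18900 and AT3G01720 the gap between the times was small. Their levels with DEX were not called different between 2 h and 4 h (0.09, adjusted p = 0.818, and 0.01, adjusted p = 0.991, limma).

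AT5G10130, of the Ole e 1 pollen allergen and extensin family, had one of the largest vector changes, 6.64, with signals of 89.3 and 6.76 in mock and 3110 and 2298 with DEX. That size depends on the mock array at the floor. AT3G47540, of the chitinase family, was the brightest member with DEX in the vector line, at 19696 ± 3184 against 723 ± 41.6 in mock, while at 4 h in the rga line it had 1323 ± 335 against 323 ± 38.5. The pectate lyase genes AT5G04310 and AT1G67750 both changed more at 4 h, with 1.1 and 2.77 for AT5G04310 and 0.88 and 1.17 for AT1G67750. AT5G04310 was 1 of 11 members whose vector change, 2.25, was below the rga change at 4 h. The O-fucosyltransferase family gene AT2G37980 was the group's exception in time, with 1.85 at 2 h and 1.05 at 4 h. AT4G03340 and AT1G32860, of the core-2 N-acetylglucosaminyltransferase and the glycoside hydrolase 17 families, had vector changes of 2.94 and 3.67.

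Genes of oxidation and detoxification numbered 6, with medians of 1.66, 1.48 and 2.89. They held the largest vector change of the named members and some of the smallest. AT5G51950, of the glucose-methanol-choline oxidoreductase family, had the largest vector change of any named member, 7.42 ± 0.65, with signals of 11.8 and 9.70 in mock and 1921 and 1752 with DEX. In the rga line it had 22.4, 15.2 and 26.9 in mock and 75.7, 106 and 107 with DEX at 2 h, and 38.5, 41.5 and 7.69 in mock and 272, 87.7 and 171 with DEX at 4 h. Its lowest DEX array at 4 h was thus about as high as at 2 h, and 1 mock array was at the floor.

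ALDH7B4, an aldehyde dehydrogenase that removes reactive aldehydes under stress, showed the reverse order. Its signals at 4 h in the rga line were 959, 1066 and 1111 in mock and 3882, 3537 and 3883 with DEX, and in the vector line 1153 and 1289 in mock and 2547 and 2745 with DEX. The rga DEX arrays at 4 h were all above the vector DEX arrays. The changes were 1.3 ± 0.09, 1.85 ± 0.09 and 1.12 ± 0.11.

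CYP71B26 and CYP71B22 are related cytochrome P450 genes, enzymes that oxidise small molecules, and differed from each other in the same way. CYP71B26 had signals at 4 h in the rga line of 240.4, 323 and 356 in mock and 1912, 1097 and 1628 with DEX, and in the vector line 275 and 238 in mock and 887 and 675 with DEX. CYP71B22 had 441, 469 and 547 in mock and 914, 780.4 and 885 with DEX in the rga line, and 825 and 1184 in mock and 8980 and 10461 with DEX in the vector line. CYP71B26 was thus highest in the rga line with DEX and CYP71B22 in the vector line with DEX. The changes were 2.14, 2.32 and 1.60 for CYP71B26 and 1.14, 0.83 and 3.29 for CYP71B22. The other members of this role were the acyltransferase family gene AT5G39090 (2.02, 1.11 and 4.34) and the glutaredoxin family gene AT5G03870 (0.99, 0.72 and 2.48).

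**Figure D3:**
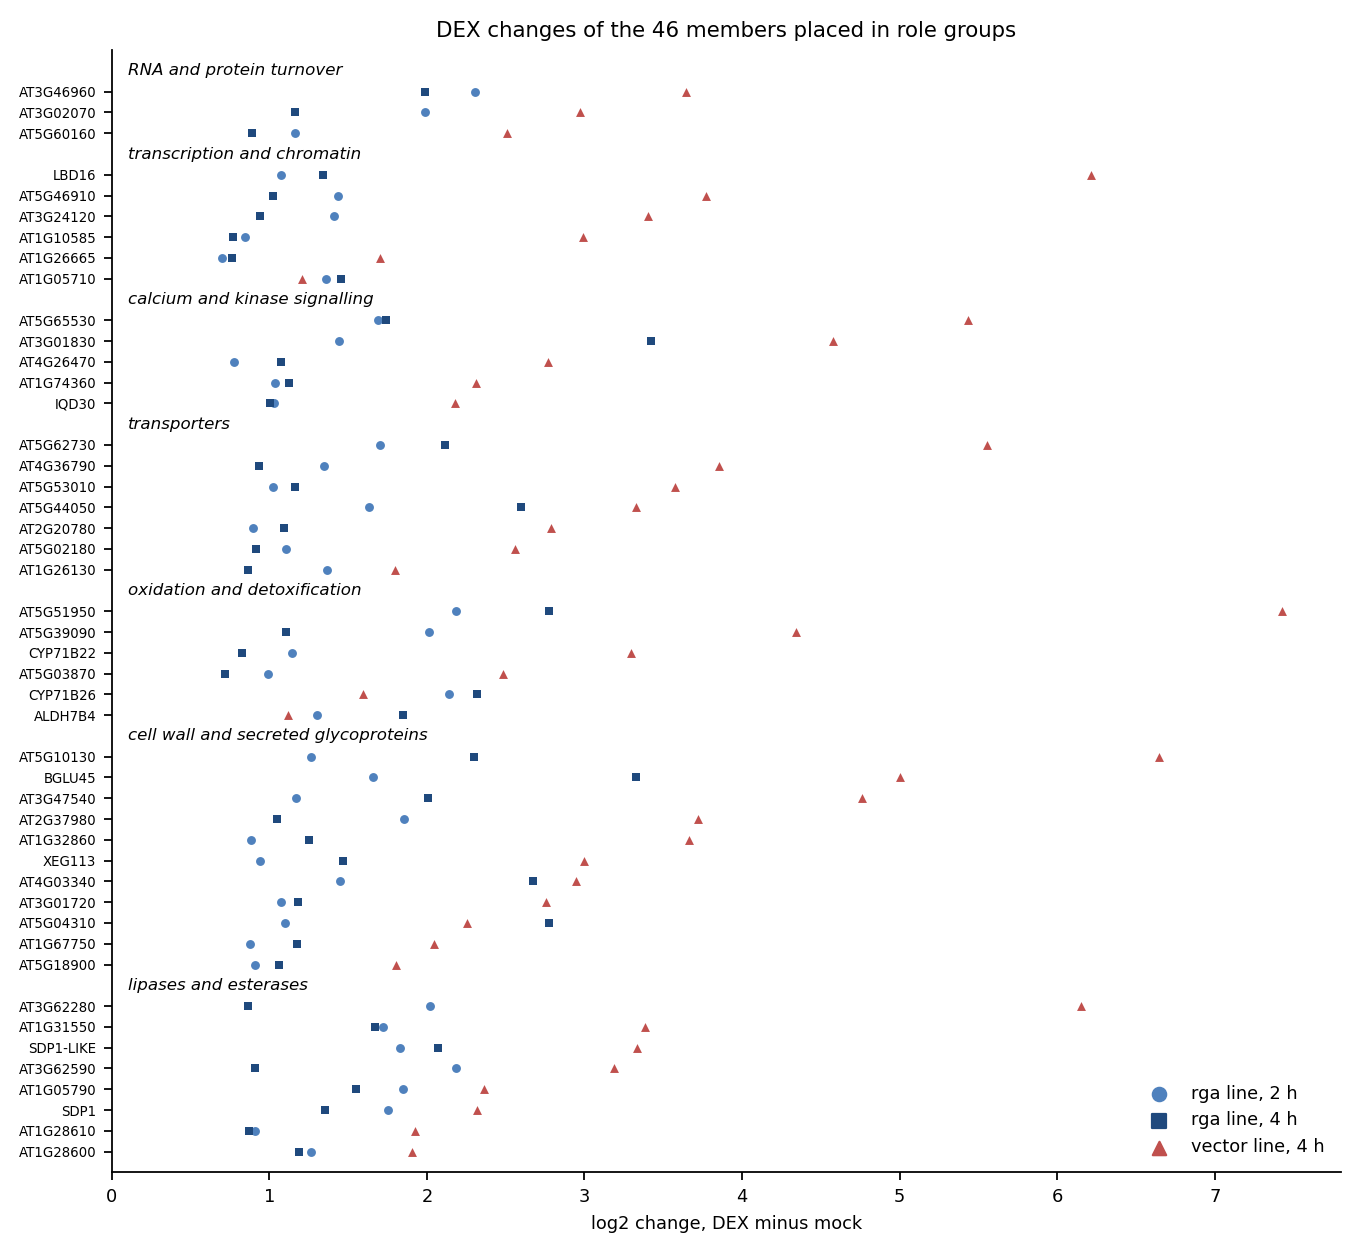
Log2 changes with DEX of the 46 members placed in role groups: light circles are the rga line at 2 h, dark squares the rga line at 4 h and red triangles the vector line at 4 h. Among cell wall genes the squares lie to the right of the circles in 10 of 11, and among lipases and esterases to the left in 7 of 8. Over all 197 members the change was larger at 4 h in 105, and the groups were formed with the values known. ALDH7B4, CYP71B26, AT5G04310 and AT1G05710 have their triangle left of the square.

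Transporter genes numbered 7, with medians of 1.35, 1.09 and 3.32. AT5G44050, of the MATE family of multidrug exporters, had signals of 307, 283 and 298 in mock and 858, 923 and 979 with DEX at 2 h. At 4 h it had 329, 198 and 296 in mock and 2107, 1381 and 1476 with DEX, and in the vector line 125 and 130 in mock and 1158 and 1398 with DEX. Its mock level differed between the lines more than its DEX level did. AT5G62730, of the nitrate and peptide transporter family, had 73.4 ± 22.2 in mock and 3369 ± 73.3 with DEX in the vector line, and 181 ± 51.7 and 769 ± 134 at 4 h in the rga line. AT5G53010, of the calcium-pump family, AT4G36790 and AT2G20780, of the major facilitator family, AT5G02180, of the amino acid transporters, and AT1G26130, of the phospholipid flippases, had vector changes between 1.80 and 3.85.

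Calcium and kinase signalling was represented by 5 genes, with medians of 1.04, 1.12 and 2.77. AT3G01830, an EF-hand calcium-binding protein gene, had the largest excess of 4 h over 2 h among the named members. Its signals were 80.2, 70.0 and 126 in mock and 294, 235 and 204 with DEX at 2 h, and 21.1, 40.4 and 44.7 in mock and 439, 228 and 470 with DEX at 4 h. Its DEX arrays overlapped between the times, while its mock arrays did not, so its change of 3.42 at 4 h against 1.44 at 2 h came with a lower mock level at 4 h. In the vector line it had 84.1 and 173 in mock and 2878 and 2872 with DEX. The kinase gene AT5G65530 had a vector change of 5.44, with 1 mock array at the floor. AT4G26470, another EF-hand gene, IQD30, a calmodulin-binding protein gene, and AT1G74360, a leucine-rich repeat receptor kinase gene, had vector changes of 2.77, 2.18 and 2.31.

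Transcription and chromatin genes numbered 6, with medians of 1.22, 0.98 and 3.20. LBD16, a LOB-domain factor known for its part in lateral root initiation downstream of auxin, had signals of 82.3, 88.0 and 112 in mock and 233, 211 and 155 with DEX at 2 h, and 128, 90.8 and 63.4 in mock and 251, 208 and 230 with DEX at 4 h. In the vector line it had 31.9 and 17.2 in mock and 1643 and 1841 with DEX, so its changes were 1.08 ± 0.26, 1.34 ± 0.26 and 6.22 ± 0.32. The bHLH family genes AT1G05710 and AT1G10585 had vector changes of 1.21 and 2.99, the MYB-type gene AT3G24120 3.40, the JmjC-domain gene AT5G46910 3.77 and the Mediator subunit gene AT1G26665 1.70. AT1G26665 was the member closest to the 2 h limit.

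Turnover of RNA and protein was represented by 3 genes. All 3 changed less at 4 h than at 2 h, as did 92 of all 197 members. AT3G46960, a SKI2-type RNA helicase gene, had signals of 275, 184 and 232 in mock and 1222, 1040 and 1122 with DEX at 2 h, and 217, 243 and 316 in mock and 1159, 903 and 998 with DEX at 4 h. In the vector line it had 268 and 272 in mock and 3288 and 3458 with DEX. Its DEX arrays lay wholly above its mock arrays at both times and in both lines, and its changes were 2.31 ± 0.15, 1.99 ± 0.15 and 3.64 ± 0.18. AT3G02070, of the OTU cysteine protease family, had changes of 1.99, 1.16 and 2.97, and the aspartyl aminopeptidase gene AT5G60160, a bright member, 1.17, 0.89 and 2.51.

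The named members without a role group had medians of 1.12, 1.23 and 2.72, and the members with no gene or several had 1.16, 1.14 and 2.58. AT1G33590, a leucine-rich repeat protein gene, had the highest mean log2 signal over the 16 arrays of the named members, 11.7, and was at 2507 ± 83.9 in mock and 4164 ± 154 with DEX at 2 h, and at 2652 ± 13.2 and 10142 ± 30.1 in the vector line. AT2G24550 had changes of 2.70, 2.08 and 4.04, and AT2G36220 of 2.53, 2.32 and 3.01; their DEX arrays in the rga line ran from 655 to 1009 and from 870.2 to 1579. For 3 members all vector mock arrays were at the floor, so their folds are bounds against the floor of 8 on each array: a pair of unnamed probe sets were at least 141-fold and at least 48.2-fold higher with DEX, and AT1G55050, with 1 DEX array itself under the floor and entered as measured, at least 2.04-fold. In all, 21 members had a mock array at the floor.

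**Figure D4:**
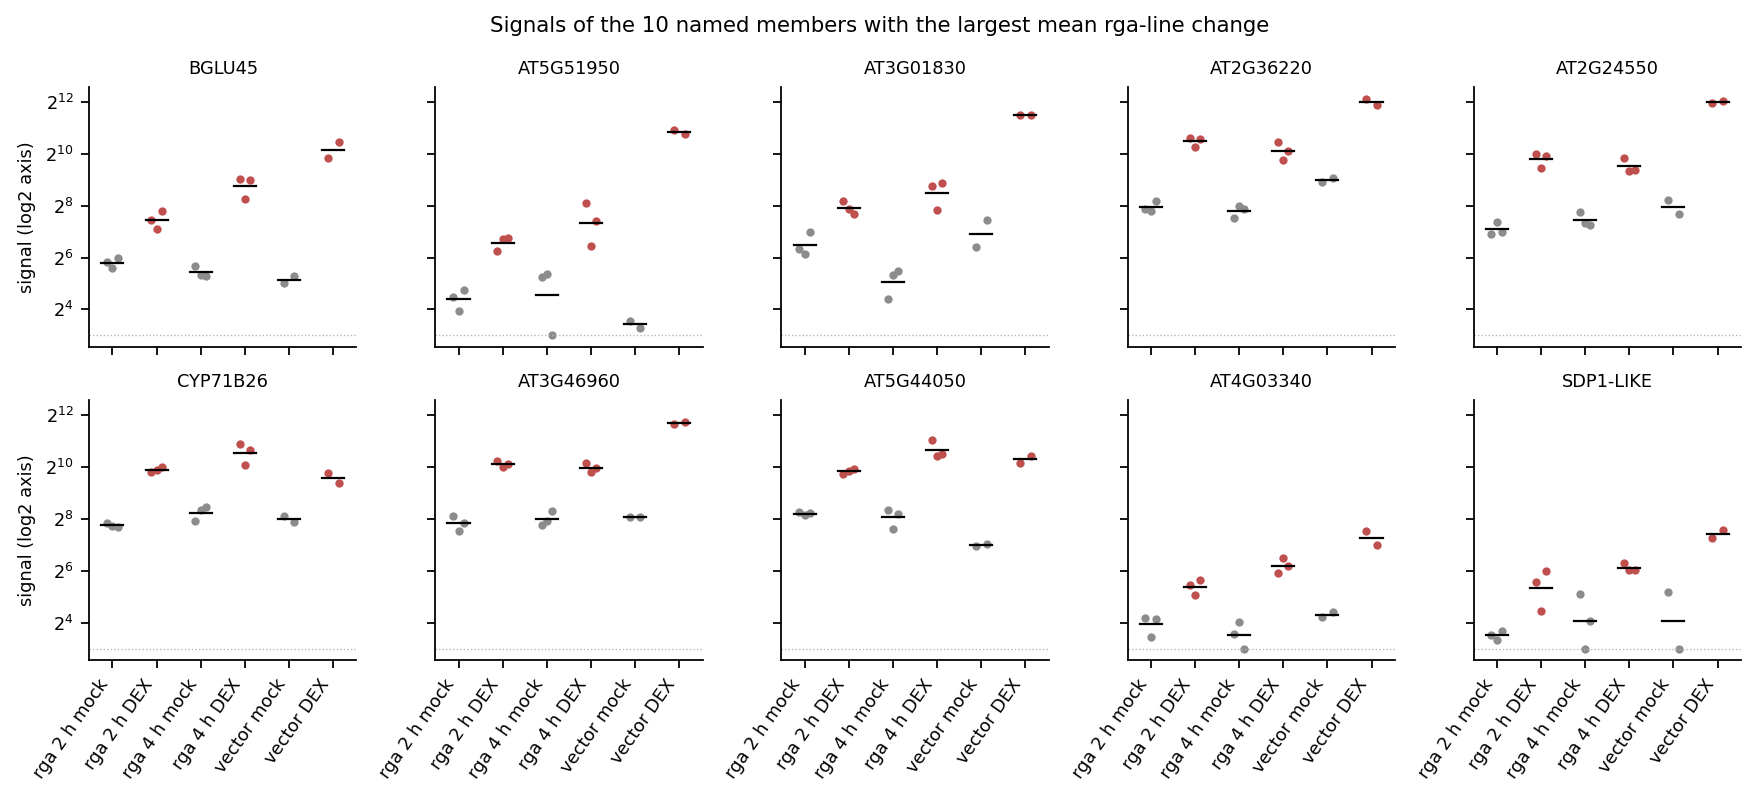
Signals on each array of the 10 named members with the largest mean rga change, on a log2 axis, with mock in grey, DEX in red, a line at each group's mean of log2 values and a dotted line at the floor of 8. The vector DEX arrays are highest except for CYP71B26 and AT5G44050, and mock arrays at the floor occur for AT5G51950, AT4G03340 and SDP1-LIKE.

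Comparisons that the rule did not use were tested on the 189 members that entered the fit. The filter on dim probe sets removed 8: AT4G03340, SDP1-LIKE, AT1G55050, AT1G32740 and 4 unnamed probe sets. These comparisons are 4 h against 2 h in mock, 4 h against 2 h with DEX, and the rga against the vector line in mock at 4 h. They use the same arrays as the rule, so a low mock array raises both a change with DEX and a difference between mock groups. A call needed an adjusted p (Benjamini-Hochberg, over all 17059 probe sets) under 0.05. For reference, 165, 172 and 188 of the 189 were called higher with DEX at 2 h, at 4 h and in the vector line, where 3.02%, 3.61% and 17.7% of all probe sets were; the rule fixed these. In either direction 4.14%, 5.16% and 47.3% of all probe sets were called. The balance of all calls in the vector line turned with the scaling: 37.4% of them were higher, against 43.6% with quantile normalization and 58.1% with each array centred on its median.

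Members were called in both directions between 2 h and 4 h. In mock 4 were higher and 11 lower at 4 h, 7.94% of the 189, where 1.54% of all probe sets tested were called (0.399% higher, 1.14% lower). With DEX 15 were higher and 18 lower, 17.5%, where 4.15% of all were called (1.95% higher, 2.2% lower). An unadjusted p under 0.05 was reached by 51 of the 189 in mock and by 76 with DEX. Over all 17059 probe sets tested, 1806 reached it in mock and 2658 with DEX. The members' median differences were near 0 in both, at 0.00 in mock and -0.01 with DEX. Of the 15 members called in mock and the 33 called with DEX, 6 were called in the same direction in both (40.0% and 18.2% of each) and none in opposite ones. The same overlap over all probe sets was not counted, so nothing is read from these shares. The numbers of members called moved with single arrays: in mock 9 were called without rga 2 h mock replicate 1 or 3 and 8 without rga 4 h mock replicate 1, and with DEX 16 without rga 2 h DEX replicate 1 and 20 without rga 4 h DEX replicate 2.

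AT1G19020 fell over time in both treatments. In mock its arrays read 592, 664 and 702 at 2 h and 176, 334 and 239 at 4 h, and with DEX 1277, 1312 and 1168 then 624, 350.4 and 589. The times did not overlap in either treatment. The differences were -1.43 ± 0.21 in mock (adjusted p = 0.00101, limma) and -1.31 ± 0.21 with DEX (adjusted p = 0.00107), and they held in every setting tried. AT1G75860 was also lower at 4 h with DEX, at 812, 715 and 718 against 1303, 1452 and 1424, by -0.90 ± 0.11 (adjusted p = 0.000107). Its smaller fall in mock, -0.53 ± 0.11 (adjusted p = 0.0168), was no longer called when any rga 2 h mock array or rga 4 h mock replicate 1 or 2 was left out (adjusted p 0.0524 to 0.0870).

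AT5G04310, the pectate lyase gene, had 59.8, 60 and 86.5 at 2 h and 7.62, 14.6 and 33.9 at 4 h in mock. The difference, -2.10 ± 0.40 (adjusted p = 0.0109), missed the threshold without rga 2 h mock replicate 3 (adjusted p = 0.0576) and with only the arrays compared (adjusted p = 0.325). With a floor of 32 it was -1.05, since 1 array at 4 h was at the floor of 8 and another near it. Its DEX arrays were close at both times, 144, 137 and 155 against 125, 118 and 85.8, and the difference was not called (-0.43 ± 0.40, adjusted p = 0.685). AT3G01830 fell by 1.40 ± 0.33 in mock (adjusted p = 0.0414) and AT3G62280 was higher at 4 h by 1.09 ± 0.26 (adjusted p = 0.0414). Both calls were lost without rga 2 h mock replicate 1 or 3, without rga 4 h mock replicate 1 or 2, and without the vector DEX arrays, with adjusted p from 0.0611 to 0.182.

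With DEX, the 5 named members with the smallest p among those higher at 4 h were AT2G34340, ALDH7B4, AT2G37750, AT1G69680 and BGLU45. AT2G34340 had 215, 196 and 228 at 2 h against 624, 498 and 718 later, which differed by 1.51 ± 0.19 (adjusted p = 0.000127). BGLU45, whose arrays are given above, differed by 1.3 ± 0.25 (adjusted p = 0.00496), AT2G37750 by 1.19 ± 0.20 (adjusted p = 0.00208) and AT1G69680 by 0.76 ± 0.14 (adjusted p = 0.00368). ALDH7B4 had 2637, 2224 and 2330 at 2 h and 3882, 3537 and 3883 at 4 h, which differed by 0.65 ± 0.09 (adjusted p = 0.000363). In each of these 5 the 4 h arrays lay above the 2 h arrays. Of the other cell wall genes, XEG113 (0.47), AT1G67750 (0.77) and AT3G47540 (0.79) were called higher at 4 h with DEX, and AT2G37980 lower, by -0.92 ± 0.20 (adjusted p = 0.0134). The MATE family gene AT5G44050 was higher by 0.82 (adjusted p = 0.00891).

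The members that fell with DEX between 2 h and 4 h included AT3G02070, 1 of the 3 turnover genes, and AT3G62590, 1 of the 8 lipase and esterase genes. AT3G02070 had 1101, 999.5 and 1071 at 2 h, then 642, 459 and 549.5, which differed by -0.95 ± 0.12 (adjusted p = 0.000131), with similar mock levels at both times (267 ± 19.9 and 244 ± 14.8). AT1G21010 fell by 0.93 ± 0.14 (adjusted p = 0.000913), from 570.4 ± 5.15 to 302 ± 45.2. AT3G62590 went from 517, 463 and 449 to 321, 182 and 167, by -1.16 ± 0.24 (adjusted p = 0.0105). That call was lost without rga 2 h DEX replicate 1 or without rga 4 h DEX replicate 2 or 3 (adjusted p 0.0535 to 0.0621).

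**Figure D5:**
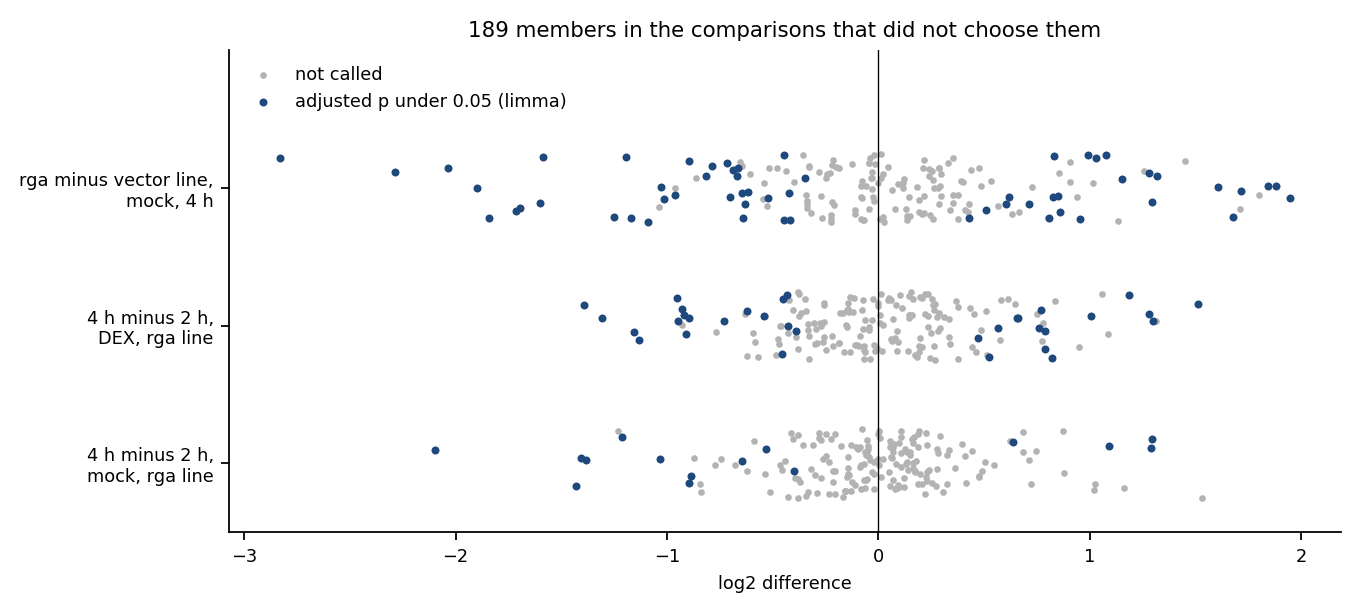
Log2 differences of the 189 members tested in the 3 comparisons that did not choose them, 1 point per member, spread vertically only to separate points; blue points have a limma adjusted p under 0.05. Called members number 15, 33 and 58 from the lowest to the highest row and lie on both sides of 0 in each.

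The lines differed at the members before any DEX. In mock at 4 h 24 members were higher and 34 lower in the rga than in the vector line, 30.7% of the 189, where 17.5% of all probe sets tested were called (11.5% higher, 6.03% lower). Of the member calls 41.4% were higher, and of all calls 65.7%; these shares were 19.6% and 53.7% after quantile normalization and 27.5% and 35.8% after centring on array medians. Without vector mock replicate 1 the member calls numbered 35, and without vector mock replicate 2 they numbered 29. The members' median difference was 0.01, against 0.10 over all probe sets tested.

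LBD16 had the smallest p among named members higher in the rga line, by 1.95 ± 0.29 (adjusted p = 0.000515), with every rga mock array at 4 h above both vector mock arrays. The summed signal of the root markers EXPA7 and EXPA18 was also higher on those rga arrays, at 168 to 293 against 75 to 127 in vector mock, and its part in the differences between lines was not tested. AT3G60440, of the phosphoglycerate mutase family, had 294, 246 and 277 in the rga and 150 and 118 in the vector line, a difference of 1.03 ± 0.17 (adjusted p = 0.000972). The kelch-repeat gene AT1G18610 differed by 1.32 ± 0.23 (adjusted p = 0.00141), and the transporter genes AT5G44050 and AT5G62730 by 1.08 ± 0.19 and 1.29 ± 0.25 (adjusted p = 0.0015 and 0.00248). The vector changes of these 5 genes lay between 3.17 and 6.22.

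AT1G19020 was lower in the rga line by -1.90 ± 0.23 (adjusted p = 0.000109), with 176, 334 and 239 against 973 and 833 in the vector line. AT1G74360, the receptor kinase gene, had 65.6, 89.2 and 103 against 307 and 251, a difference of -1.71 ± 0.26 (adjusted p = 0.000551). AT2G36220 differed by -1.19 ± 0.19 (adjusted p = 0.000668), AT3G19660 by -1.69 ± 0.28 (adjusted p = 0.000942) and AT5G04310 by -2.29 ± 0.45 (adjusted p = 0.0028). The groups did not overlap in any of these 5, and the call for AT5G04310 was lost without vector mock replicate 2 (adjusted p = 0.0581) and with only the arrays compared (adjusted p = 0.0852). CYP71B22 and AT3G01830, met above, were also lower in the rga line, by -1.03 ± 0.22 and -1.84 ± 0.37 (adjusted p = 0.00442 and 0.00324). The lines are separate transgenic lines, so the transgene and other differences between them cannot be told apart here.

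Other genes were described by lists of families and pathways, without a test of the list. Of 15 lists of pathways and families, 9 had a tested probe set. A list holds only genes found by symbol in the annotation used, where 8730 probe sets have no gene. The counts and medians below describe the genes found and not whole families. Of 15 tested genes with a CYP symbol, 2 were higher and none lower with DEX at 2 h, 3 were higher and none lower at 4 h, and 6 were higher and 2 lower in the vector line, where 3.02%, 3.61% and 17.7% of all probe sets were called higher and 1.12%, 1.55% and 29.6% lower. Their medians were -0.09, -0.04 and 0.03. The 15 include both CYP71B members, and CYP71 and CYP59, symbols also borne by cyclophilins, which were called in none. Among the non-members, CYP71B36 changed by 1.18 ± 0.37 (adjusted p = 0.102, limma), 1.62 ± 0.37 (adjusted p = 0.0144) and 2.26 ± 0.46 (adjusted p = 0.000492) in the same order, and CYP71B6 by 0.12, 0.39 and 2.79.

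Of 16 tested sugar transporters with a SWEET or TMT symbol, 1 was higher, 8 were lower and 7 were not called in the vector line, where 29.6% of all probe sets were called lower. Their median there was -1.16, and after quantile normalization or median centring, counted after seeing the data, 8 were again lower, with medians of -0.94 and -0.89. At 2 h and at 4 h in the rga line 1 was higher and 1 lower, with medians of -0.16 and -0.18. The higher one was TMT1, a vacuolar sugar importer, at 0.46 ± 0.12 (adjusted p = 0.0264), 1.25 ± 0.12 (adjusted p = 1.3e-06) and 1.64 ± 0.14 (adjusted p = 3.15e-08). Of 9 glutathione transferases, which attach glutathione to toxic compounds, none was higher and 1 lower at either time in the rga line, and 1 was higher and 3 lower in the vector line, with medians of -0.22, 0.01 and -0.55. Of 5 WRKY factors none was called at 2 h, WRKY6 was higher at 4 h (1.65 ± 0.22, adjusted p = 8.44e-05), and in the vector line WRKY6 was higher and 2 were lower, with medians of 0.14, 0.04 and -0.30. The list for darkness and sugar starvation held 3 tested genes, SAG29, AKINBETA1 and EXO, with medians of 0.06, 0.02 and -0.92. None was called at 2 h. At 4 h SAG29 was higher (1.41) and EXO lower (-0.74). Both were lower in the vector line (-0.92 and -1.71), where 1 was under either other scaling. Whether darkness or starvation induces each of them was not tested, so nothing is read for the class. None of 3 genes of abscisic acid and osmotic response was called, with medians of 0.30, -0.29 and -0.34.

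The lists of NAC factors, heat shock proteins and salicylic acid defence held 1 tested gene each. NAC014 and Hsp70-2 were lower in the vector line, by -0.71 ± 0.21 (adjusted p = 0.00899) and -2.04 ± 0.18 (adjusted p = 3.27e-08), and neither was called in the rga line. The call of NAC014 was lost under both other scalings. SAG101 was called in none, with 0.03, -0.18 and 0.26. The 6 lists of ABC and MATE transporters, jasmonate genes, ethylene response and AP2 factors, MYB factors, clock genes and gibberellin metabolism had no probe set under a listed symbol, so nothing is said of them. Members written as a locus, such as the MATE family gene AT5G44050 and the MYB-type gene AT3G24120, could not be found by symbol. No list but the CYP one held a member found in this way.

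Members with a locus were spread over the 5 chromosomes: 32 lay on chromosome 1, 14 on 2, 14 on 3, 12 on 4 and 24 on 5. As shares these were 33.3%, 14.6%, 14.6%, 12.5% and 25%, against 26.2%, 15.0%, 20.4%, 14.8% and 23.6% of the tested probe sets with a locus.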

How the data were processed

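Transcript levels in shoots were measured on 16 Affymetrix ATH1 arrays of 22810 probe sets. The authors deposited 1 linear intensity per probe set and array. The submitters' processing notes name MAS5, whose version is not given in the sources used here. With 2% trimmed at each end, every array had a mean signal of 500.05, so arrays had been scaled to 1 target, and this was kept. For arrays, their number limits the precision: 3 a group in the rga line, 2 in the vector line.

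The 64 control probe sets were left out, signals under 8 were raised to 8 (10.0% of values lay below it) and log2 was taken. The dimmest 25% of probe sets, by mean log2 over all arrays, did not enter the tests, and 17059 did. Tests used limma 3.58.1 in R 4.3.3, with 1 model of 6 group means over all arrays, 10 residual degrees of freedom and eBayes with a trend; calls used a Benjamini-Hochberg adjusted p under 0.05. The fit was tested on simulated data. Fold changes refer to log2 values after the floor, which understates changes of dim probe sets. Tables used Python 3.11.15, pandas 2.3.3 and numpy 2.4.6, and figures matplotlib 3.10.9. No arrays held identical values.

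Gene names came from the platform annotation, in which 13513 probe sets have 1 gene, 503 have several and 8730 have none, updated through the RefSeq table (assembly TAIR10.1); 13436 had a locus. Those listing several genes stay unnamed. Members and lists were chosen with earlier results of these data known. Any member could be named; signals on each array were given for the 10 largest mean rga changes, the 6 largest vector changes, the 5 brightest members, up to 5 each way by p in each comparison that the rule did not use, and members on a list, and some others were given by ranges. SDP1 was given in full after its values had been seen. Non-members were named from lists and at the limits. No sequences were used here. Alternatives were other scalings, floors, filters and limits, fits without the trend, with array weights, with only the arrays compared, with a replicate block or with a 1.5-fold minimum, and each replicate left out.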

Additional observations from a re-analysis of the deposited data

Results flagged for a closer look

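A signal outside the measured transcripts differed between groups: the control probe set for 25S ribosomal RNA, which the comparisons do not use, had a mean signal of 12808 on the 2 vector DEX arrays (12528 and 13088), above the 422 and 526 of the vector mock arrays. In the rga line it was 845 ± 266 in mock and 1525 ± 546 with DEX at 2 h, and 863 ± 425 and 883 ± 628 at 4 h (mean ± SD, n = 3). The members' signals were also highest on these 2 arrays, and whether both are linked was not tested.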

How the results depend on the processing

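The number of members moved from 197 to 128 with limits raised by 0.2; the other planned scalings, floors and limits gave 198 to 289, and leaving out each replicate 193 to 217. Without the vector condition, a setting chosen after seeing the data, there were 241. In the rga line at 4 h, 568 of all probe sets were called with DEX at 1.5-fold, where 880 were without that minimum. Between the times in mock, members called numbered 8 with no filter on dim probe sets, 6 without the trend and 4 with only the arrays compared, where 15 were called, and all calls 174, 98, 117 and, at 1.5-fold, 173, where 263 were. With DEX, members called numbered 21 and 20 with no filter and without the trend, where 33 were, and all calls 419 without the trend and 435 at 1.5-fold, where 708 were. Between the lines in mock, 35 members were called with only the arrays compared, where 58 were, and all calls were 1910 after quantile normalization and 1888 with the lowest 50% left out, where 2993 were. The cause of these shifts was not tested.

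With each replicate left out in turn, members called ran from 8 to 14 between the times in mock, 16 to 27 with DEX and 29 to 66 between the lines. All calls ran from 134 to 248, 360 to 593 and 1016 to 3131 in the same comparisons, and from 473 to 602, 509 to 814 and 6389 to 7091 with DEX at 2 h, at 4 h and in the vector line. Of 25 named results tested, 19 kept their call in every setting run and none turned direction. Scaling moved the median of all probe sets with DEX in the vector line from -0.15 to -0.03 (quantile) and 0.11 (median centring), and the members' from 2.76 to 2.55 and 3.03.

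Deviations of same-numbered arrays correlated at -0.08 to 0.26 between mock and DEX groups, and those of differently numbered arrays at -0.24 to 0.13. At 2 h the same-numbered values were 0.04, 0.06 and 0.02, and the others ran from -0.06 to 0.02. Whether replicate numbers mark pairs was not tested. With a replicate block, members called numbered 13, 37 and 62, and AT3G62280 lost its call in mock (adjusted p = 0.0565). With only the arrays compared, the mock calls of AT1G75860, AT3G01830, AT3G62280 and AT5G04310 over time were lost (adjusted p 0.108 to 0.432). The number of arrays limits the precision, and 8 members were too dim to enter the fit.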
